A study of Drosophila melanogaster with 212 samples.

Results

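The genes described here encode the subunits of the vacuolar proton ATPase. They were chosen by name alone, as the genes whose listed symbol begins with Vha, and were 33 of the 17104 genes in a table of read counts from single cells. The cells were sorted by fluorescence from brains of Drosophila melanogaster, carried a green fluorescent protein on their membrane, and are labelled as octopaminergic or tyraminergic neurons. Female brains gave 54 cells of the nervy mutant and 51 of the wild type, and male brains 56 of the mutant and 51 of the wild type. Flies of all groups lived 15 to a vial up to day 6 after eclosion, and cells of all groups carried the reporter. The labels name neither the nervy allele nor the driver of the reporter. No animal is named, so each group counted as 1 sample whatever its number of cells. No test between groups was possible, and each difference below is given as both values with an interval that covers counting error only.

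The vacuolar ATPase uses ATP to pump protons into endosomes, lysosomes and secretory vesicles. Its cytosolic sector, V1, splits ATP and turns a central stalk, and its membrane sector, V0, carries the protons across the membrane. In neurons the acid and the charge it builds inside synaptic vesicles drive transmitter uptake by vesicular transporters, among them Vmat for octopamine, tyramine and other monoamines and VGlut for glutamate. Several fly subunits are encoded by small families of paralogues, many of which are known for narrow tissue use.

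Of the 189 cells that passed the filters, 175 had at least 100 CPM (counts scaled to a total of 1000000) of Tdc2, the neuronal tyrosine decarboxylase that makes tyramine, and are called Tdc2-positive. Female cells were 49 mutant and 44 wild type, and male cells 44 mutant and 38 wild type. Their totals ran from 20875 to 3045780 counts, with a median of 891082. Among the columns that passed the limits on counts and genes, 19 pairs were near-identical, 9 of them between cells of different groups. Sums and correlations were also computed without such cells. Tdc2, by which these cells were picked, averaged 5570 CPM over the 4 groups. Tbh (the enzyme that turns tyramine into octopamine) averaged 13979 CPM, and Vmat, which also carries other monoamines, 92850 CPM. Together the 3 genes reached 106412 to 121390 CPM in the 4 groups, mostly from Vmat. Glial markers stood apart in some male cells. The sum of 7 glial genes, none of which was at 0 over all cells, ran from 0 in every group up to 110984 CPM in a mutant and 61787 CPM in a wild-type male cell, against 1106 CPM in a mutant and 1127 CPM in a wild-type female cell. In all, 22 Tdc2-positive cells had at least 1000 CPM of them, of which 8 were mutant male, 11 wild-type male, 1 mutant female and 2 wild-type female. In 8 of these, all male, they reached 33024 to 110984 CPM, led by Gs2, a glutamine synthetase of glia, at a median of 40722 CPM. All 8 had the letter D in their title, whose meaning the labels do not give. Their column names carried running numbers within 1 to 96. Among Tdc2-positive cells these numbers covered 28 mutant and 20 wild-type males but 0 mutant and 4 wild-type females, so sex and number cannot be told apart. In the same 8 cells alrm, nrv2, Eaat1 and repo had medians of 1993, 3272, 2823 and 22.6 CPM, while moody and wrapper had medians of 0.

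Together the 33 Vha genes took 2.26% of all counts of the Tdc2-positive cells. In females their summed level was 23263 CPM for the mutant (95% exact Poisson interval 23215 to 23312) and 22196 CPM for the wild type (22152 to 22240). In males it was 23082 CPM for the mutant (23039 to 23126) and 21816 CPM for the wild type (21771 to 21860). Of the 33 genes, 16 averaged 20 CPM or more. A further 4 lay between 1 and 20 CPM and 13 under 1 CPM, of which 6 had no read in any Tdc2-positive cell. Those 16 covered each of the 15 subunits, so that every subunit of the pump had a well-read gene.

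Levels of different genes are compared per kilobase of the listed transcript. In V1, Vha68-1 (2L from 13000770 to 13004107 on dm6) encodes subunit A, which holds the catalytic ATP sites. It had the highest mean level per kilobase of the Vha genes, 1392 CPM per kb, with 1380 (mutant) and 1308 (wild type) CPM per kb in females, and 1526 (mutant) and 1353 (wild type) in males. Vha55 (3R from 12623762 to 12627829), its partner subunit B in the ATP-splitting head, averaged 757 CPM per kb. The rotor subunits D and F were read from Vha36-1 (2R from 15541435 to 15542498) at 681 and from Vha14-1 (2R from 15679426 to 15680084) at 945 CPM per kb. Among the subunits of the outer stalks, Vha13 (G) averaged 1115 CPM per kb, Vha26 (E) 865. Vha44 (C), with 751 CPM over 3.807 kb, had the lowest level per kilobase among the leading genes of the subunits. VhaSFD, subunit H, which in yeast holds back ATP splitting when V1 is detached from the membrane, averaged 347 CPM per kb.

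In V0, Vha16-1 (2R from 6625242 to 6632384) encodes subunit c, the proteolipid that is repeated around the rotating ring. It averaged 1370 CPM per kb, close to Vha68-1, and lay above Vha68-1 in both female groups and in wild-type males, at 1417 (mutant) and 1406 (wild type) in females and 1273 (mutant) and 1383 (wild type) in males. VhaPPA1-1, the related ring subunit c'', averaged 874 CPM per kb, and VhaAC39-1, subunit d, which joins the ring to the central stalk, averaged 524. Vha100-1 (3R from 29131193 to 29137975) encodes subunit a, the large membrane subunit beside the ring, and is known from fly work as the neuronal form that acts at synapses. It averaged 332 CPM per kb. The small membrane subunit e was read mainly from VhaM9.7-a at 816 CPM per kb. The accessory subunits VhaAC45 and VhaM8.9, which are membrane proteins bound to V0, averaged 787 and 704 CPM per kb. All 15 leading genes ranked among the 500 highest per kilobase of 14032 genes with a read, from rank 23 for Vha68-1 to rank 400 for Vha44.

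**Figure D1:**
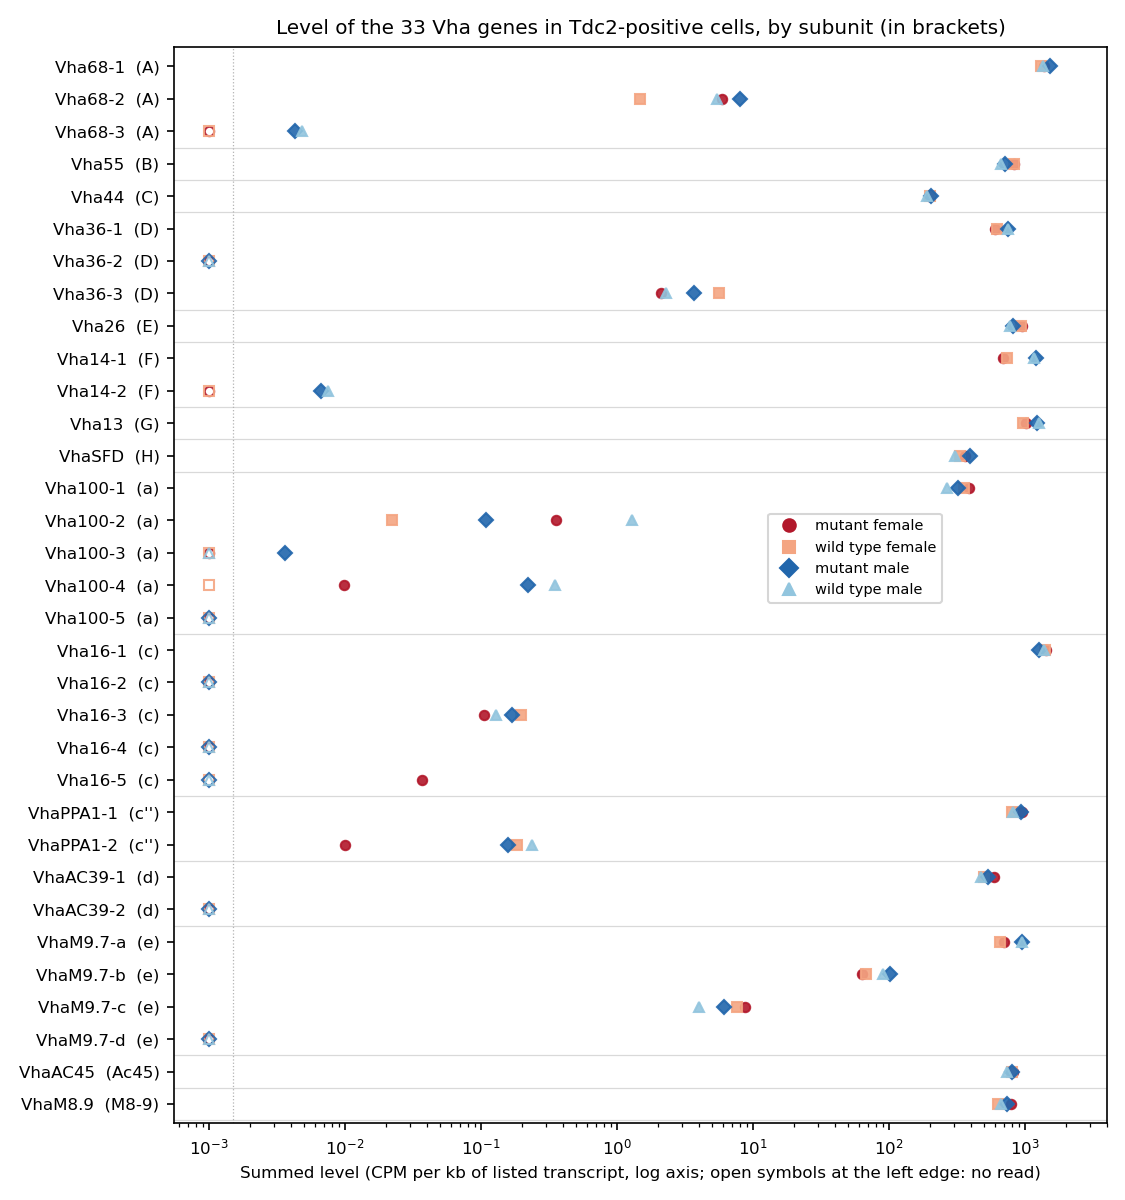
Summed level of each of the 33 Vha genes in Tdc2-positive cells, in CPM per kb of listed transcript on a log axis, with 1 symbol per group (1 sample each) and genes ordered by subunit. Each subunit had 1 gene at about 200 to 1500 CPM per kb in every group; in families the other paralogues lay about 10-fold or more lower, and 6 genes had no read.

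Which paralogue the cells used was clear-cut in nearly every family. For 8 subunits the table lists more than 1 gene, and in 7 of them the leading paralogue held at least 95% of the family's level per kilobase. Vha68-1 held 99.63% of subunit A and Vha36-1 99.50% of subunit D. Vha14-1 held subunit F but for 1 count of Vha14-2. In V0, Vha100-1 held 99.82% of subunit a, Vha16-1 99.99% of subunit c and VhaPPA1-1 99.98% of subunit c'', and subunit d had no read of VhaAC39-2 beside VhaAC39-1. The shares differed little between groups. Vha68-1 ranged from 99.47% in mutant males to 99.89% in wild-type females, and Vha100-1 from 99.39% in wild-type males to 99.99% in wild-type females.

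The leading paralogues of subunits A and c'' lie near paralogues with far lower levels. Vha68-2 (2L from 12974322 to 12978607) and Vha68-3 (2L from 12978786 to 12981293) lie next to each other and near Vha68-1 on the same arm, yet averaged 5.20 and 0.00228 CPM per kb against 1392 for Vha68-1. VhaPPA1-2 (3R from 14899606 to 14900277) lies beside VhaPPA1-1 (3R from 14902330 to 14904061) on the same strand and averaged 0.147 CPM per kb against 874. In the subunit a family, Vha100-2 averaged 0.444 and Vha100-4 0.145 CPM per kb, and Vha100-3 had a single cell with a read. Vha16-3 and Vha16-5 averaged 0.150 and 0.00924 CPM per kb. Vha36-2, Vha100-5, Vha16-2, Vha16-4, VhaAC39-2 and VhaM9.7-d had no read in the 175 cells, which allows up to 0.0174 CPM for each at a limit of 3 counts over the group of cells.

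Subunit e was the exception. VhaM9.7-a (3L from 4262705 to 4263464) held 90.33% of it, VhaM9.7-b (3L from 21539862 to 21541215) 8.93% and VhaM9.7-c 0.734%. The share of VhaM9.7-a was 90.69% (mutant) and 89.61% (wild type) in females, and 89.87% (mutant) and 91.05% (wild type) in males. Without division by length it was 84.8%, since the listed transcript of VhaM9.7-b is longer. VhaM9.7-b was not a trace in a few cells: 165 of 175 cells had a read of it, and its median share of subunit e per cell was 8.77%.

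The low paralogues were read in part of the cells. With each cell thinned to 190000 reads, which 161 cells allowed, Vha68-2 had a read in 40.4% of cells (exact binomial interval 32.7 to 48.4), VhaM9.7-c in 27.3% (20.6 to 34.9), Vha36-3 in 10.6% (6.27 to 16.4) and Vha100-2 in 4.97% (2.17 to 9.56). Reads were few: 5.59% of the thinned cells had at least 5 reads of Vha68-2, and without thinning 78.3% of cells had a read. All leading genes were read in at least 99.4% of thinned cells. Among the low paralogues a single cell held 31.6% of the counts of Vha68-2, 56.8% of those of Vha100-2 and 13.5% of those of VhaM9.7-c.

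Cell by cell, the choice between Vha68-1 and Vha68-2 hardly varied. Vha68-2 made up under 1% of the counts of both genes in 166 Tdc2-positive cells, 1 to 10% in 7 cells and over 10% in 2 cells, with a median of 0.0677%. Cell D2 of the mutant males had 2752 CPM of Vha68-2 beside 981 CPM of Vha68-1, a share of 73.7%. Cell D7 of the wild-type males had 386 beside 230 CPM, a share of 62.7%. Both carried glial markers, at 6798 and 49835 CPM, against a median of 114 CPM over the 175 cells.

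For subunit e the balance varied more. VhaM9.7-b made up under 10% of its level per kilobase in 103 cells and 10 to 50% in 68 cells. It made up over 50% in 4 of the 175 cells: D6 and D1 of the mutant males, at 95.7% and 94.4%, and D3 and D7 of the wild-type males, at 87.5% and 63.7%. All 4 were among the 8 cells with the most glial marker counts, from 49835 to 110984 CPM. The highest VhaM9.7-b values of the male groups, 930 CPM in a mutant and 1577 CPM in a wild-type cell, came from 2 of them. The part of glial RNA in these shares was not tested. With the 22 cells of at least 1000 CPM of glial markers left out, Vha68-1 held 99.8% of subunit A and VhaM9.7-a 90.7% of subunit e.

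The 14 kept cells with under 100 CPM of Tdc2 gave a view of other sorted cells. In females they were 1 mutant and 4 wild-type cells and in males 5 mutant and 4 wild-type cells, and their median of glial markers was 13141 CPM, against 114 CPM in the Tdc2-positive cells. Their Vha genes summed to 9229 CPM, against 22578 CPM in the 175 Tdc2-positive cells, and ran from 1389 to 13516 CPM per cell, against 5048 to 33906. Vha68-1 had 1170 CPM in the Tdc2-poor cells against 3631 CPM, VhaAC45 292 against 1485 CPM and Vha16-1 1526 against 4065 CPM. Several members went the other way, among them Vha68-2 and VhaM9.7-b. Vha68-2 had 79.2 CPM against 13.2 CPM, a log2 ratio of 2.50, and a log2 ratio of 1.89 without the top cell of each set, which among the Tdc2-poor cells was D1 of the wild-type females. VhaM9.7-b had 164.1 CPM against 98.8 CPM (ratio 1.58 to 1.75). Vha100-2, at 3.12 against 1.32 CPM, and VhaM9.7-c, at 8.35 against 5.55 CPM, were also higher. Without the top cell of each set their log2 ratios were -0.17 and -0.09. Vha36-2 had 0.373 CPM against 0, with reads in 3 Tdc2-poor cells. The small subunit e gene VhaM9.7-a was at nearly the same level, with 546 against 580 CPM. Tdc2-poor cells B18 of the mutant females and D16 of the mutant males, with 59444 and 41195 CPM of glial markers, had reads of Vha68-2 and none of Vha68-1. The 14 cells mix groups in other proportions than the 175 and were picked by Tdc2, so the contrast is a description.

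Within the Tdc2-positive cells, 14 had under 100 CPM of Tbh and they came from all groups, with 3 mutant and 4 wild-type cells from each sex. Their Vha genes summed to 24486 CPM, against 22412 CPM in the 161 cells with more Tbh, a ratio with a counting interval of 1.09 to 1.10. Vha26 had 3109 against 2466 CPM and Vha55 2432 against 2015 CPM, while Vha68-1 had 3160 against 3672 CPM. Vmat was lower in the cells with little Tbh, at 62186 against 95406 CPM. Fewer counts of Tbh and Vmat leave a larger part of the total to other genes, and the size of this effect in the Vha ratio was not tested. The per-cell ranges overlapped for each of these Vha genes.

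Most leading genes varied less from cell to cell than the median gene of at least 400 CPM. Vha16-1 had the smallest spread, with a ratio of the 90th to the 10th percentile of 1.70 over the 175 cells. Per cell the mutant females ran from 2671 to 5667 CPM with a median of 4411, and the wild-type females from 3129 to 5846 with a median of 4129. The mutant males ran from 964 to 5583 with a median of 3685, and the wild-type males from 1003 to 5963 with a median of 3964. The 4 groups overlapped over most of their range, and the male groups reached lower. For the 15 leading genes the median of this ratio was 2.36, from 1.70 to 3.48. Over the 365 genes with at least 400 CPM the median ratio was 3.35, with 4 genes whose 10th percentile was 0 counted as highest, and 14 of the 15 leading genes lay below it. These 365 genes were not matched to the leading genes for level. VhaM9.7-b, the lowest of the 16 members, spread 7.43-fold.

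Low values came from a small set of male cells. The 8 Tdc2-positive cells with the lowest summed Vha level, from 5048 to 13097 CPM, were the same 8 male cells with over 10000 CPM of glial markers. In D1 of the mutant males, the lowest, Vmat had 3677 CPM beside 110984 CPM of glial markers. The medians of Vha68-1 were close, at 3427 (mutant) and 3519 (wild type) CPM in females and 3750 (mutant) and 3462 (wild type) CPM in males. A mixture of RNA from a neuron and from another cell and a cell with less Vha RNA cannot be told apart in these values.

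**Figure D2:**
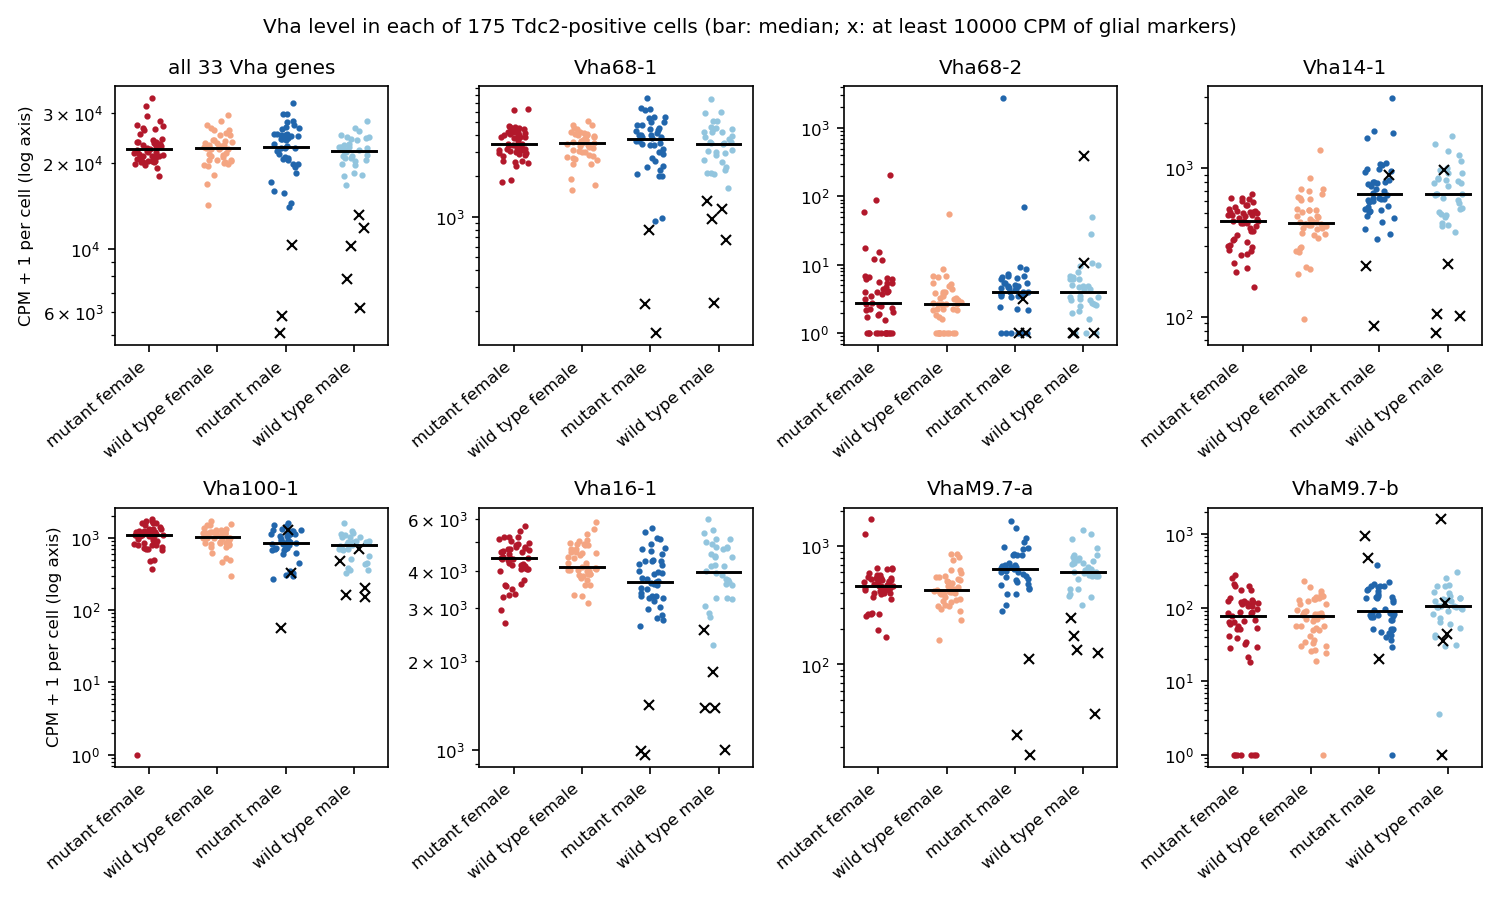
Level per cell (CPM + 1, log axis) of the 33 Vha genes together and of 7 members in the 175 Tdc2-positive cells, by group, with a bar at the median and a cross for the 8 cells with over 10000 CPM of glial markers. The crosses are the 8 lowest summed levels and include the 3 highest VhaM9.7-b values, and Vha14-1 has higher medians in both male groups.

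Mutation of nervy was compared with wild type within each sex. In females the summed Vha level was 23263 CPM in mutants and 22196 CPM in wild type, a log2 ratio of 0.07 (ratio 1.05, counting interval 1.05 to 1.05). In males it was 23082 CPM in mutants and 21816 CPM in wild type, a log2 ratio of 0.08 (ratio 1.06, 1.06 to 1.06). None of the 16 members with at least 20 CPM was 1.5-fold apart in either sex, where 12.4% of the 5533 genes tested were in females and 13.1% in males. In females 11 of the 16 were higher in mutants and 5 lower, where 52.4% of all genes were higher. Their median log2 ratio was 0.06 against 0.02 over all genes. In males 12 were higher and 4 lower, where 51.2% of all genes were higher, with a median of 0.11 against 0.01.

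The largest difference in females was VhaM8.9, an accessory subunit, with 1143 CPM in mutants and 927 CPM in wild type, a log2 ratio of 0.30 (ratio 1.22 to 1.25). VhaPPA1-1 and VhaAC39-1, the V0 subunits c'' and d, were both 0.24 higher on the log2 scale. Vha14-1 was lowest, at 448 CPM in mutants and 485 CPM in wild type (-0.11). In males the largest difference was VhaSFD, with 976 CPM in mutants and 760 CPM in wild type, a log2 ratio of 0.36 (ratio 1.27 to 1.30). That value depended on the running number that each column name carries: it was 0.81 among males numbered 1 to 96 and -0.06 among those numbered above 96. Per cell, VhaSFD ran from 25.9 to 1841 CPM in mutant males and from 52.3 to 1426 CPM in wild-type males. These ranges overlapped almost wholly. Vha16-1 was lower in mutant males, with 3788 CPM against 4116 CPM (-0.12). It too moved with running number, at -0.24 among males numbered 1 to 96 and 0.03 among those above 96. The summed Vha level was at 0.16 and 0.03 in the same sets. The groups are 1 sample each, and differences of this size were not tested.

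Males were compared with females within each genotype. The summed Vha level was nearly equal, at 23082 CPM in males and 23263 CPM in females of the mutant (log2 ratio -0.01) and at 21816 CPM in males and 22196 CPM in females of the wild type (-0.02). The 16 members split evenly, with 8 higher and 8 lower in males of each genotype. Past 1.5-fold were 2 of the 16 in mutants, where 26.6% of all genes tested were, and 1 of the 16 in wild type, where 29.7% were.

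Of the 16 members with at least 20 CPM, the 4 shortest and VhaM9.7-b were higher in males of both genotypes. Vha14-1, the rotor subunit F with a listed length of 0.6560 kb, had 783 CPM in mutant males and 448 CPM in mutant females, a log2 ratio of 0.80 (ratio 1.72 to 1.78). In wild type it had 763 CPM in males and 485 CPM in females, 0.65 (1.55 to 1.60), which fell below 1.5-fold without near-identical cells (0.48) and with median-of-ratios factors (0.54). Its per-cell medians were 666 CPM in mutant males against 442 in mutant females and 668 in wild-type males against 425 in wild-type females, with overlapping ranges. VhaM9.7-b had 122.4 CPM in males and 77.1 CPM in females of the mutant, 0.66 (1.52 to 1.66), which became 0.52 and lay below 1.5-fold without the cells of at least 1000 CPM of glial markers. In wild type it had 108.5 CPM in males and 82.5 CPM in females, 0.39. VhaM9.7-a was 0.43 higher in mutant and 0.54 higher in wild-type males, Vha36-1 0.33 and 0.29, and Vha13 0.25 and 0.39.

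Several long transcripts were lower in males. Vha100-1, at 2.935 kb, had 936 CPM in males and 1139 CPM in females of the mutant (-0.28) and 784 CPM in males and 1044 CPM in females of the wild type (-0.41). Vha55 was at -0.21 in mutants and -0.33 in wild type, and Vha26 at -0.22 and -0.26. Not every long transcript was lower: Vha44, the longest at 3.807 kb, was at 0.04 and -0.08, and Vha68-1 at 0.14 and 0.05.

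Over all genes, too, the ratio fell with transcript length. Across the 5533 genes the log2 ratio of males to females correlated with listed length at a Spearman rho of -0.54 in mutants and -0.52 in wild type, and across the 16 Vha genes at -0.75 and -0.82. The 708 genes under 1000 bases had median log2 ratios of 0.51 in mutants and 0.59 in wild type, and the 1307 genes over 4000 bases had -0.29 and -0.27. The genotype ratios showed no such trend over all genes, with rho of -0.05 in females and -0.01 in males, and over the 16 Vha genes of 0.02 and 0.23. Set against the median of the 500 other genes nearest in length, the Vha genes had male to female differences of -0.28 to 0.34 in mutants and of -0.24 to 0.31 in wild type, with median sizes of 0.19 and 0.14. On this scale Vha14-1 was at 0.28 in mutants and 0.03 in wild type, and Vha44 at 0.30 and 0.31. An index of long over short transcripts, the log2 ratio of the summed CPM of 2538 genes of at least 2.5 kb to that of 1030 genes under 1.2 kb, had per-cell medians of 1.98 (mutant) and 1.99 (wild type) in males, against 2.63 (mutant) and 2.61 (wild type) in females.

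Sex and running number cannot be told apart over much of the table. Of the 175 cells, those numbered 1 to 96 were 28 mutant and 20 wild-type male cells, against 0 mutant and 4 wild-type female cells. Above 96, too, every male cell had a lower number than every female cell, so this set does not hold number fixed. In it the log2 ratio of males to females for Vha14-1 was 1.04 in mutants and 0.93 in wild type. For Vha100-1 it was -0.46 and -0.35.

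**Figure D3:**
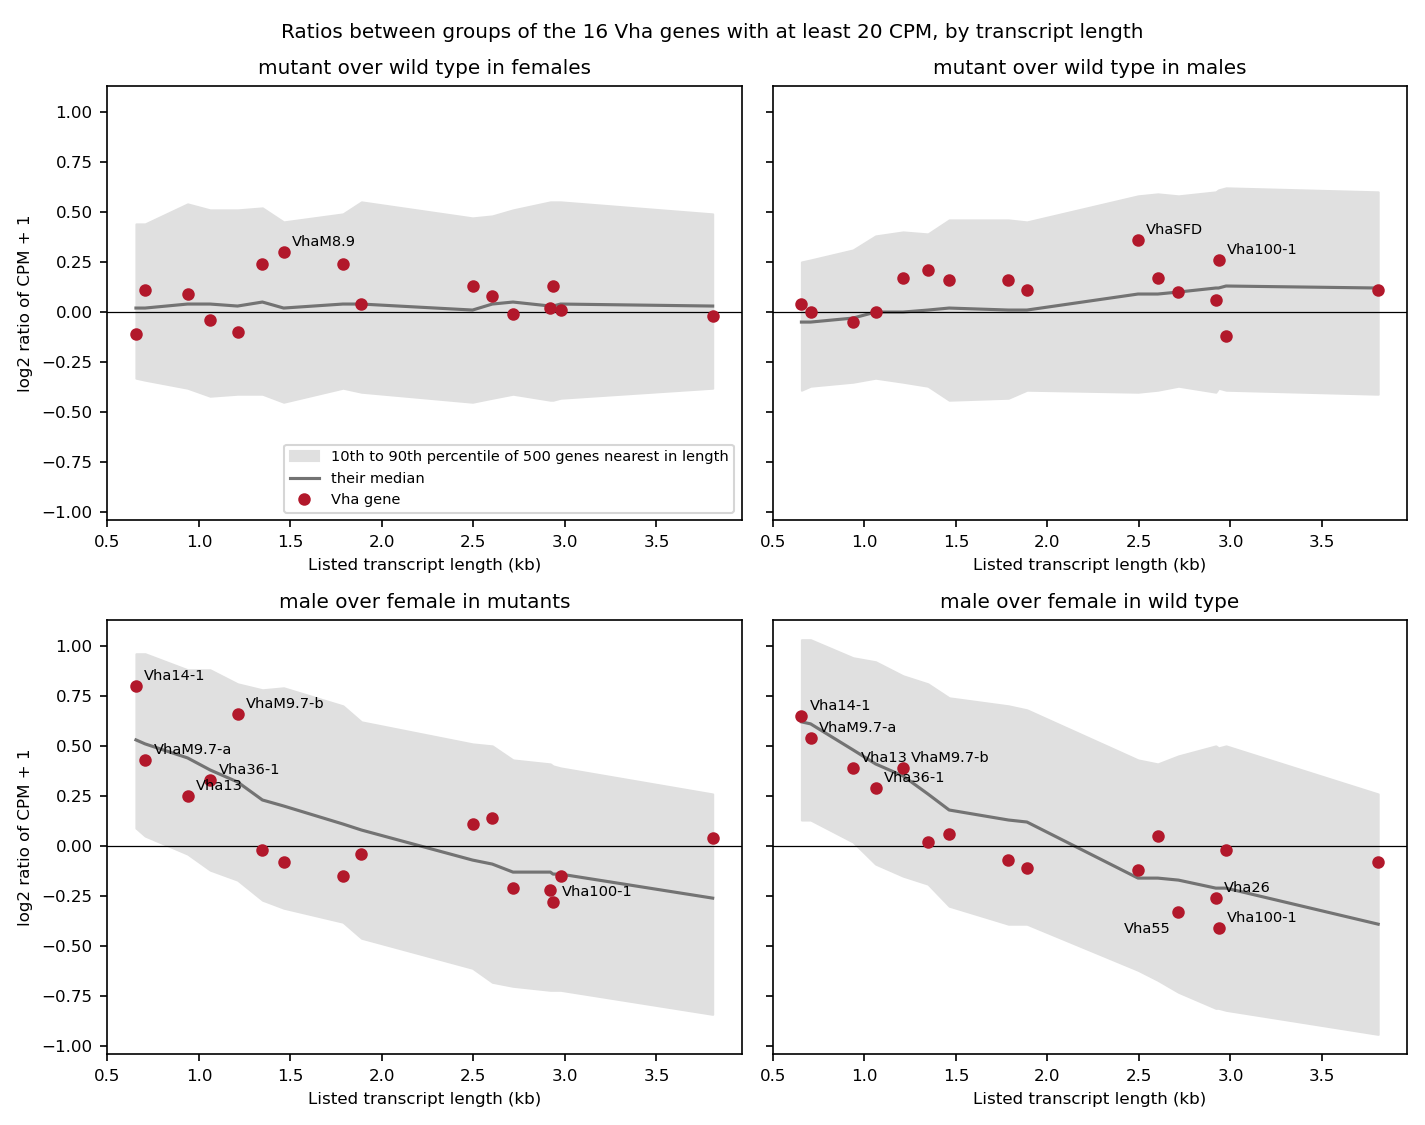
Log2 ratio of CPM + 1 between groups (vertical axis) against listed transcript length in kb (horizontal axis) for the 16 Vha genes with at least 20 CPM, 1 panel per comparison, with the median (line) and the 10th to 90th percentile (grey) of the 500 other genes nearest in length. The mutant to wild type ratios lie between -0.12 and 0.36 at all lengths, while the male to female ratios fall with length, from 0.80 and 0.65 for Vha14-1 to -0.28 and -0.41 for Vha100-1, with Vha44, the longest, near 0.

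Among the paralogues under 20 CPM, ratios rested on few cells. In females Vha68-2 had 14.8 CPM for the mutant and 3.74 CPM for the wild type (1.74, ratio 3.33 to 4.75), and without the top cell of each group 6.32 against 2.26 CPM (1.16). With the Tdc2-poor cells included the female ratio was 0.11. In males it had 20.3 CPM in mutants and 13.6 CPM in wild type (0.54), and without the top cells 5.22 against 5.61 CPM (-0.09). In wild type it was higher in males than in females, at 13.6 against 3.74 CPM (1.63), a ratio that turned to -0.02 without the cells of at least 1000 CPM of glial markers. VhaM9.7-c had 7.33 (mutant) and 6.44 (wild type) CPM in females and 5.22 (mutant) and 3.41 (wild type) CPM in males.

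Co-variation with the transporters was measured over the 175 cells, with ranks centred within each group. Vmat itself averaged 12695 CPM per kb, with 93705 (mutant) and 99339 (wild type) CPM in females and 87451 (mutant) and 90905 (wild type) CPM in males. Of its exon bases, 26.2% are shared with other annotated genes. VGlut had no read in 5 mutant and 2 wild-type female cells, with medians per cell of 854 (mutant) and 1109 (wild type) CPM in females and 1071 (mutant) and 1266 (wild type) CPM in males. VGAT, for GABA, had 78.3 CPM over a listed 2.696 kb. VAChT, for acetylcholine, averaged 1.32 CPM per kb and prt 0.251.

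The summed Vha level had a Spearman rho with Vmat of 0.18 (mutant) and 0.49 (wild type) in males and of -0.20 (mutant) and -0.23 (wild type) in females, and 0.04 over all 175 cells. Without the cells of at least 1000 CPM of glial markers it was -0.21 (mutant) and 0.05 (wild type) in males and -0.21 (mutant) and -0.22 (wild type) in females. Over the 16 members the median rho was -0.01, beside 0.01 over 5516 other genes, whose 10th and 90th percentiles were -0.12 and 0.13. Members differed: Vha68-1 had 0.36, Vha16-1 0.20, Vha100-1 0.17 and VhaSFD 0.16, while VhaPPA1-1 had -0.23, Vha14-1 -0.21 and Vha13 -0.18. Vmat is a long transcript, listed at 7.314 kb, and correlated with the index of long over short transcripts at 0.47, as did Vha68-1 at 0.34. With that index held fixed, Vha68-1 had 0.24 with Vmat, VhaM9.7-a 0.23, Vha16-1 0.14 and Vha14-1 0.03, and the median over the 16 members was 0.06. A Pearson correlation of log2(CPM + 1), which weighs extreme cells more, gave a median of 0.49 with Vmat. Vmat is also a large part of the total by which counts are scaled, so the CPM of other genes fall as Vmat rises. With library size taken without Vmat, VGlut and the 10 genes with the most counts, the median over members was 0.10 and Vha68-1 had 0.45.

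In both male groups the median over members with Vmat changed sign without the cells with glial markers. This median rho was 0.10 (mutant) and 0.19 (wild type) in males and -0.10 (mutant) and -0.14 (wild type) in females. Without the cells of at least 1000 CPM of glial markers it was -0.21 (mutant) and -0.11 (wild type) in males, over 36 and 27 cells, and -0.10 (mutant) and -0.16 (wild type) in females, over 48 and 42 cells. Glial markers themselves had a rho with the summed Vha level of -0.49 (mutant) and -0.48 (wild type) in males, and with Vmat of -0.39 (mutant) and -0.53 (wild type). Vha68-1 had a positive rho with Vmat in 3 of the 4 groups, at 0.33 (mutant) and 0.42 (wild type) in males and 0.28 in wild-type females without those cells, while in mutant females it had -0.01.

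With VGlut the summed Vha level had a rho of -0.18, and the median over the 16 members was -0.07 beside 0.05 over all other genes, with 4 of the 16 above 0. VhaM9.7-a was highest at 0.14, and Vha55 and VhaM9.7-b were lowest, both at -0.15. By group, the summed Vha level had a rho with VGlut of -0.04 (mutant) and 0.06 (wild type) in males and -0.51 (mutant) and -0.17 (wild type) in females. Without the cells of at least 1000 CPM of glial markers it was -0.36 and -0.36 in males and -0.49 and -0.17 in females, below 0 in all 4 groups. These are descriptions over cells that share a preparation within each group and differ in depth, and carry no p.

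**Figure D4:**
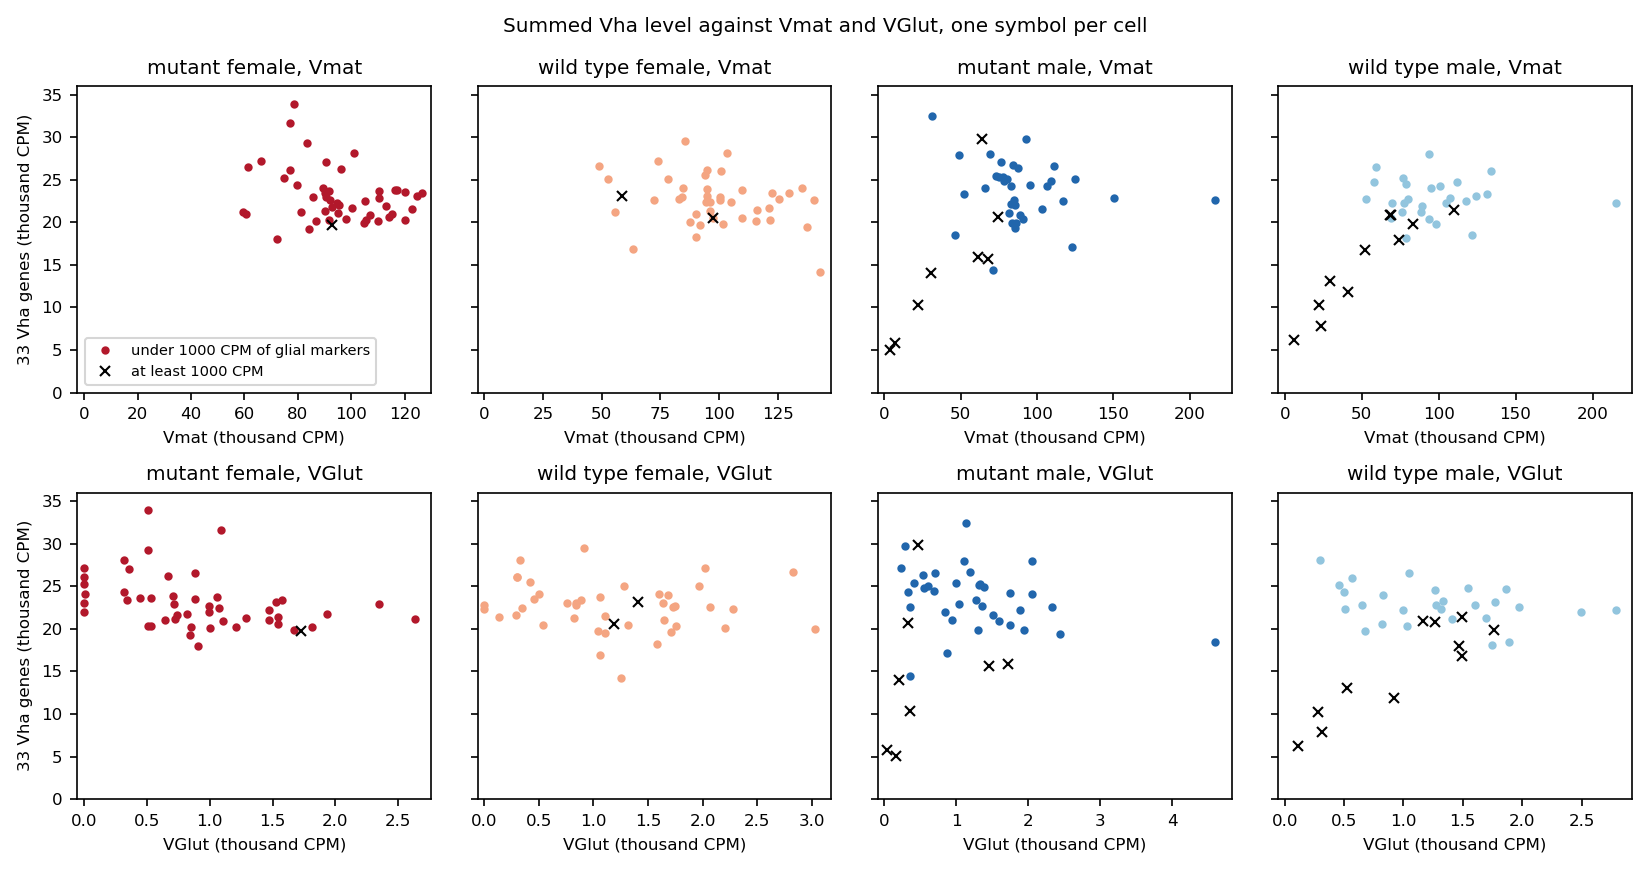
Summed level of the 33 Vha genes (vertical axis) against Vmat (upper row) and VGlut (lower row), all in units of 1000 CPM, in each Tdc2-positive cell, 1 panel per group, with crosses for cells of at least 1000 CPM of glial markers. In the male panels the crosses include the lowest Vha and Vmat values, while the other cells form a cloud, with a rho to VGlut of -0.36 in both male groups.

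Tdc2 and Tbh, the enzymes of the pathway, were set beside the Vha genes in the same way. With Tdc2 the summed Vha level had a rho of 0.33, and 14 of the 16 members were above 0, with a median of 0.15 beside 0.08 over all other genes. Most other genes were above 0 as well, with 10th and 90th percentiles of -0.07 and 0.22. Vha68-1 and VhaSFD had 0.41, Vha55 0.38, VhaAC45 0.34 and Vha100-1 0.33. By group, the summed level had a rho with Tdc2 of 0.68 (mutant) and 0.63 (wild type) in males and 0.02 (mutant) and 0.07 (wild type) in females. Without the cells of at least 1000 CPM of glial markers the male values were 0.52 in mutants and 0.16 in wild type. In the groups without those cells, 11 (mutant) and 10 (wild type) of the 16 members were above 0 in males. In females 9 were above 0 in each genotype. With Tbh the median over members was -0.09 beside 0.00 over other genes, from -0.28 for Vha14-1 to 0.36 for Vha68-1.

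Correlations between subunits were mostly positive. Over 120 pairs of the 16 members the median rho was 0.21, from -0.18 to 0.46, and all but 8 pairs were above 0. Pairs of all 5533 genes had a median of 0.05 and a 90th percentile of 0.16, and pairs among the 350 other genes with at least 400 CPM had a median of 0.07 and a 90th percentile of 0.26, above the median of the Vha pairs. The highest pairs, each at 0.46, were Vha26 with Vha16-1, Vha14-1 with Vha13, and VhaSFD with VhaAC45. Vha55 and VhaPPA1-1 were the most central, each with a median of 0.31 with the other members, and VhaM9.7-b the least, with 0.07. Without the cells of at least 1000 CPM of glial markers the median over pairs was 0.15.

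Pairs of like transcript length correlated more than pairs of unlike length. The 8 members of at least 1.8 kb had a median of 0.29 among themselves, and the 8 shorter ones 0.31, against 0.14 between the sets. The lowest pair was Vha100-1 with VhaM9.7-a, at -0.18, although both are V0 subunits. With the index of long over short transcripts held fixed the medians became 0.28, 0.27 and 0.21, and the median over all pairs 0.24. With that index itself Vha68-1 had a rho of 0.34 and Vha100-1 0.32, while the short Vha14-1 had -0.49 and Vha13 -0.48, and Vha44, the longest, -0.14.

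**Figure D5:**
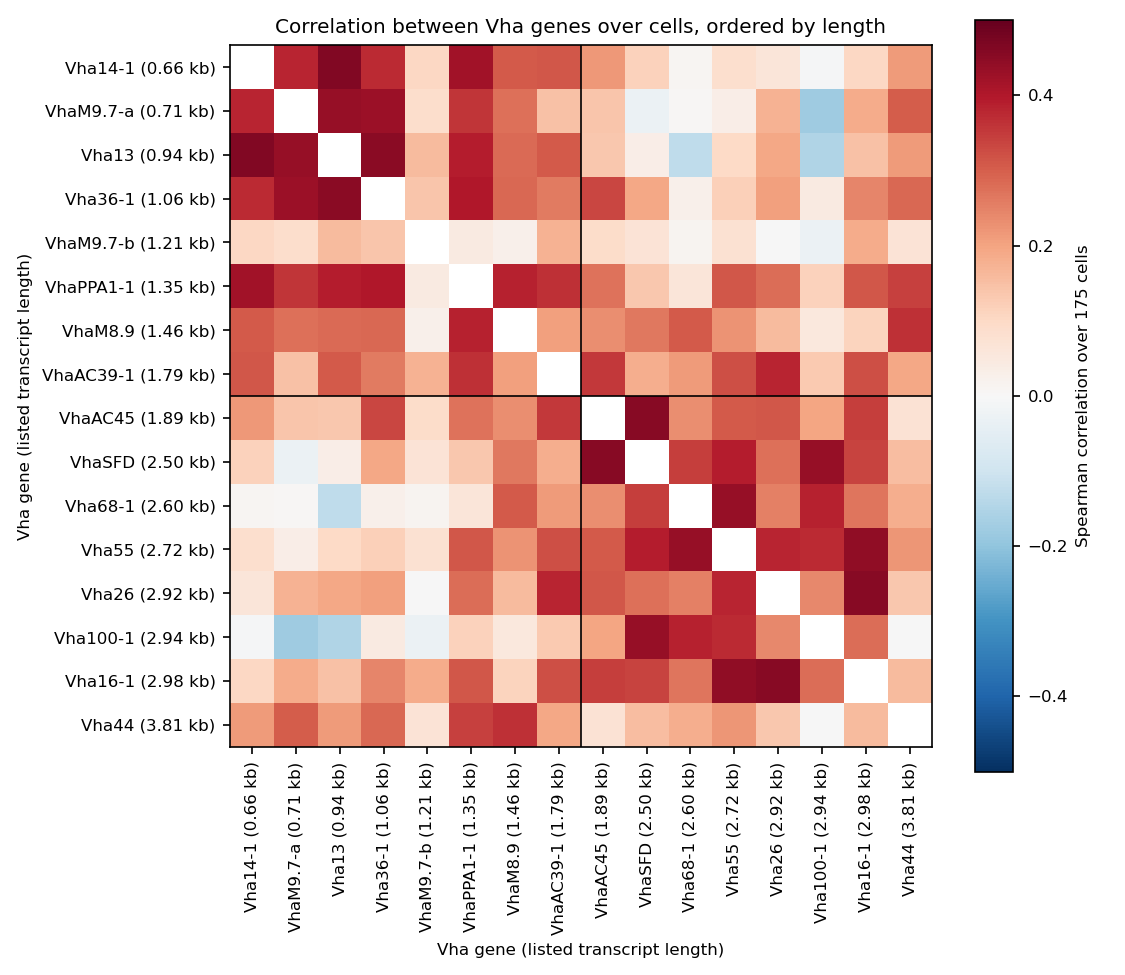
Spearman correlation over 175 cells between each pair of the 16 Vha genes with at least 20 CPM, ordered by listed transcript length from short (top and left) to long, with a line at 1.8 kb. Correlations are stronger within the short and within the long block, with medians of 0.31 and 0.29, than between the blocks, with 0.14.

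The genes most like the summed Vha level over cells, by Spearman rho among 5517 genes outside the set with at least 20 CPM, were PyK, the pyruvate kinase of glycolysis, at 0.49, CG6330 at 0.48 and Atg8a, a ubiquitin-like protein of the autophagosome membrane, at 0.46. CG31030 followed at 0.45. The reference lists it as VhaAC45RP, a relative of VhaAC45 that the symbol in the table keeps outside the set, and it averaged 1901 CPM. The next were Hasp at 0.44, CG3662, CG13404 and Fis1 at 0.42, CG1461 at 0.41 and Gs1 at 0.40. The median over all other genes was 0.07. These values, and those of the lists below, are over all 175 cells, with the 22 of at least 1000 CPM of glial markers included. Over the same cells the summed Vha level had a rho of -0.31 with glial markers and 0.16 with total counts. The part of either in these correlations was not tested. CG1461 and CG13404 share exon bases with other annotated genes, so their reads cannot be assigned with certainty.

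Related gene lists were set beside the pump by the same measure. Mitochondrial ATP synthase, the rotary relative that makes ATP, had 12 of 16 genes at 20 CPM or more, with a median rho of 0.24 with the summed Vha level, from 0.12 for ATPsynG to 0.36 for ATPsynbeta. Its median log2 ratio of males to females was 0.50 in mutants, with 3 of 12 past 1.5-fold and higher, and 0.53 in wild type, with 5 of 12, where 26.6% and 29.7% of all genes were past it in either direction. Of the 12 genes 7 are under 1000 bases, and all genes of that length had medians of 0.51 in mutants and 0.59 in wild type. The list set up for synaptic vesicle and release proteins (13 of 13 at 20 CPM or more) had a median rho of 0.05. It ran up to 0.37 for cpx, the complexin that clamps vesicle fusion. Syp, lowest at -0.32, is in flies the symbol of the RNA-binding protein Syncrip and not of a vesicle protein. The next lowest was brp at -0.08. Lysosomal genes (5 of 11, of which 8 were listed) had a median of 0.12, led by the membrane protein Lamp1 at 0.28. Genes for assembly and regulation of the pump (6 of 7) had a median of 0.14. Of these, Rbcn-3A and Rbcn-3B, known in flies for assembly of the pump, averaged 11.2 and 32.1 CPM per kb, with rho of -0.07 and 0.19, and Mitf, the transcription factor that switches on Vha genes in flies, averaged 3.55 CPM per kb. Chloride and proton exchangers (5 of 6) had a median of 0.07, led by Nhe1 at 0.26. Of the mutant to wild type ratios in these lists and in the enzymes of the pathway, 1 passed 1.5-fold, in the exchangers of males and upward. Of all 5533 genes tested, 12.4% in females and 13.1% in males did.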

How the data were processed

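Values deposited by the authors were read counts over exons per gene and cell, made with HOMER and not normalized, on the dm6 build, per the file headers. Aligner and strand use were not given in the sources used here. The deposited values fall in steps of 0.5 (56.2% of those above 0 were whole), so they were handled as estimated counts (the unit of expected counts), where the plan had assumed whole ones. Gene lengths and coordinates are those deposited, and exon overlaps come from Ensembl release 115. The members and lists were chosen with earlier results of these data known.

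Cells with under 10000 counts or 500 genes were left out (13 columns). Near-identical columns (Pearson r of at least 0.95 over 7500 genes) of 1 group were averaged (10 pairs), while pairs between groups stayed in. No doublet caller was run. Group sums of these counts were scaled to CPM (a total of 1000000 over listed genes), and ratios are of log2(CPM + 1), which understates low genes. A gene was called past 1.5-fold when its exact counting interval also left out 1. Named genes were the leading paralogue of each subunit, other members of at least 20 CPM, each member near 0, the 10 genes most like the summed level, and the lists. Correlations are Spearman, with ranks centred by group. Amplified reads are not independent molecules, so the 95% intervals and the limit of 3 counts cover counting error only. Ratios and correlations were tested on simulated data. The alternatives were other cell sets, lengths, scalings, pseudocounts and correlation measures. Python 3.11.15, numpy 2.4.6, pandas 2.3.3 and scipy 1.17.1 were used.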

Additional observations from a re-analysis of the deposited data

Results flagged for a closer look

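Among the members, 2 paralogues under 20 CPM had ratios past 1.5-fold that pointed in opposite ways in groups that share a contrast. How many other genes under 20 CPM did so was not counted, so these 2 have no background beside them. Vha100-2, a paralogue of subunit a, had 1.08 CPM in mutant and 0.0674 CPM in wild-type females, a log2 ratio of CPM + 1 of 0.96 (ratio of counts 5.05 to 80.1), but 0.332 CPM in mutant and 3.92 CPM in wild-type males, -1.88. The same values gave a male to female log2 ratio of -0.64 in mutants and 2.20 in wild type. It had a read in 19 of 175 cells, and 1 cell held 56.8% of its counts. Without the top cell of each group the ratios were 0.24 and -0.87 between genotypes and -0.19 and 0.92 between sexes. Vha36-3, a paralogue of rotor subunit D, had 4.75 CPM in males and 2.72 CPM in females of the mutant, 0.63, but 2.97 CPM in males and 7.26 CPM in females of the wild type, -1.06. It had a read in 30 cells, and without the top cells the ratios were 0.09 and -0.87. Each group is 1 sample, and the difference between the paired ratios was not tested.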

How the results depend on the processing

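No paired analysis was possible because each group is 1 sample and the numbers in the titles only name cells. Leaving out cells with glial markers, holding the transcript-length index fixed, using the union of exons and leaving out the top cell of a Tdc2 set were chosen after seeing the data. Promoter motifs, and sex contrasts among cells numbered 1 to 96 (under 5 females), were not run. Above 96 every male has a lower number than every female, so sex contrasts there do not hold number fixed. Under all 7 alternatives 7 subunits had a leading paralogue of at least 95%. The VhaM9.7-a share was 88.7% by mean per-cell CPM and 84.8% without lengths. The summed Vha log2 ratio, mutant over wild type, was in females 0.14 with all kept cells, 0.03 by mean per-cell CPM, 0.04 with median-of-ratios factors, 0.06 without the 10 top genes and 0.05 without the top Vha cells. In males it was 0.09, 0.09 and 0.11 under the first 3, 0.07 without the top cells, 0.12 without near-identical cells, 0.16 at numbers 1 to 96 and 0.03 above 96 and without glial cells. Male over female, it was in mutants -0.03, -0.07, -0.07, -0.02 and 0.00 under those same 5 in the female order, -0.04 without near-identical cells, 0.03 above 96 and 0.02 without glial cells. In wild type it was 0.03, -0.13, -0.14 and -0.05 under the first 4, -0.09 without near-identical cells, and 0.06 above 96 and without glial cells. Members past 1.5-fold between genotypes were 1 in each sex by mean per-cell CPM, 3 in females and 1 in males at 1 CPM, and 1 in males without near-identical cells and at numbers 1 to 96. Between sexes they were 4 in mutants and 5 in wild type at 1 CPM, 1 in mutants at 100 CPM and without glial cells, and in wild type 0 without near-identical cells and with median-of-ratios factors, 3 by mean per-cell CPM and 2 above 96. Shares of all genes past 1.5-fold are given for the main setting only, so these counts have no background beside them. Vha68-2, male over female in wild type, turned from 1.63 to -0.15 with all kept cells, -0.06 above 96 and -0.02 without glial cells. The median rho with Vmat was 0.31 at numbers 1 to 96, 0.49 by Pearson correlation of log2(CPM + 1) and 0.19 in wild-type males. With VGlut it was 0.14 at numbers 1 to 96, -0.26 in mutant females and 0.12 in wild-type males. Between members it was 0.29 with all kept cells, 0.34 at 1 to 96, 0.14 above 96, 0.42 by Pearson correlation, 0.14 in mutant females and 0.30 in mutant males. Causes were not tested. Shallow cells limit what can be said of paralogues under 20 CPM.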
